A study of Rattus norvegicus with 6 samples.

Results

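Solute carriers are membrane proteins that move sugars, amino acids, ions, vitamins and drugs across membranes, and the methylation of their genes was examined in brain microvascular endothelial cells (BMECs) after chronic stress. The hippocampus was dissociated and cells of the CD45-/CD31+ gate were collected in a cell sorter, all from adult male Sprague-Dawley rats. The CUMS group (3 samples) had undergone chronic unpredictable mild stress for 8 weeks, and the Ctrl group (3 samples) had been left undisturbed in the home cage. No genetic change is given for either group, and the labels do not say whether a sample was 1 rat or a pool. A differentially methylated region (DMR) belonged to the set when the symbol of an annotated gene began with Slc and a digit or with Slco, and each region was counted once by its position and cytosine context. Of 24862 annotated DMRs, 12262 were assigned to a gene feature, and 234 of these lay in 144 Slc and Slco genes.

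In endothelial cells of the brain, solute carriers take over what the sealed junctions hold back, and nearly all glucose, amino acids, lactate and thyroid hormone pass through them. Slc families are numbered by relatedness, and the Slco family holds the organic anion transporting polypeptides. Cytosine methylation in mammals occurs mostly at CG dinucleotides. CpG islands, which are stretches rich in CG that often cover promoters, are usually poorly methylated, whereas the open sea away from islands is usually highly methylated. Methylation in the CHG and CHH contexts (with A, C or T at the place of H) is low in most cell types.

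For each region the tables hold 2 levels, CUMS and Ctrl, in each of which 3 samples were combined. No level below therefore carries a replicate error, the number of reads behind it is unknown, and how far rats of the same group differed cannot be seen. Every region had already been selected by the authors for a difference between the groups, so counts and levels are given as a description and no test was applied. Levels and differences are in percent and in percentage points, with CUMS minus Ctrl as the difference. A region higher in CUMS is called hypermethylated and a region lower in CUMS hypomethylated. Expression was not measured in these libraries, so the sorted cell type could not be checked by its markers. Of 7 endothelial marker genes, 3 (Pecam1, Tek and Vwf) carried a region, where 25.9% of all protein-coding genes did. Of their 3 regions, 2 were hypermethylated and 1 hypomethylated. A region was also carried by 2 of 3 neuronal markers (Rbfox3 and Syt1, with 6 regions). The same held for 1 of 3 astrocyte markers (Aldh1l1) and 1 of 3 microglial markers (Ptprc, which encodes CD45). All regions of these neuronal, astrocyte and microglial markers were hypermethylated, as were 78.1% of all regions in gene features. The part of other cell types in the results was not tested.

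Slc promoters that carried a hypermethylated CG region are shown first, to set the bases around the gene starts beside the levels given below. The stretches run from 250 bases before to 50 bases after the start of the gene in RefSeq, on the GRCr8 assembly, and CG dinucleotides are in capitals. Slc16a1, Slc30a1, Slc38a1 and Slc4a4 had a region in a promoter within a CpG island. The promoter of Slco1a3 is shown beside them, since its region lay in the open sea and was highly methylated in both groups. The DMRs are placed on the mRatBN7.2 assembly, and it was not determined whether they fall within the bases printed.
Slc16a1 (GRCr8 chr2:194812410-194812709, plus strand): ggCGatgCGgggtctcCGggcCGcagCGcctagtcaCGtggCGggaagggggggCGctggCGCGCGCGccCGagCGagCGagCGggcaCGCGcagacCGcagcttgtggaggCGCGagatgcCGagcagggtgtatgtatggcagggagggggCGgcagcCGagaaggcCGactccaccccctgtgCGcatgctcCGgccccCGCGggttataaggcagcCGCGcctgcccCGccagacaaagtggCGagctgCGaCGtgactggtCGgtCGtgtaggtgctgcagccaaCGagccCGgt
Slc30a1 (GRCr8 chr13:106021769-106022068, plus strand): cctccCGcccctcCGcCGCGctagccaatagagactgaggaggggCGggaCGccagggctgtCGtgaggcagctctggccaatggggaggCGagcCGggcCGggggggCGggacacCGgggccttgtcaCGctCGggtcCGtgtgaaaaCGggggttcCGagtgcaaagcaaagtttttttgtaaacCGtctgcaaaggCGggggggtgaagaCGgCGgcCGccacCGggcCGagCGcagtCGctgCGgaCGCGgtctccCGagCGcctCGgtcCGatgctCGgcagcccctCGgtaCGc
Slc38a1 (GRCr8 chr7:129681352-129681651, minus strand): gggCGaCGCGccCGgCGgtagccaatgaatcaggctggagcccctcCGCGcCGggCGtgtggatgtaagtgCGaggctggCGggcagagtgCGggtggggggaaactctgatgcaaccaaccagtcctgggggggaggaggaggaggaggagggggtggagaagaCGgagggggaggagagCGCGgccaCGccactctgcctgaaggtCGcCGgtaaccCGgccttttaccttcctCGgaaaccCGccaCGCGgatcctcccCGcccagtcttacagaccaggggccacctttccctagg
Slc4a4 (GRCr8 chr14:19468233-19468532, minus strand): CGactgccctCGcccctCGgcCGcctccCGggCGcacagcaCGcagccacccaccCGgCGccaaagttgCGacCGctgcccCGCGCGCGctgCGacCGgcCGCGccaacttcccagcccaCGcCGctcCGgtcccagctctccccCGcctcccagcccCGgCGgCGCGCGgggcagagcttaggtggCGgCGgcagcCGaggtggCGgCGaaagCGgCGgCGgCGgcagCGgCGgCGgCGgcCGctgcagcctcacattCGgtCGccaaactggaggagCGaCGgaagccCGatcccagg
Slco1a3 (GRCr8 chr4:176749674-176749973, minus strand): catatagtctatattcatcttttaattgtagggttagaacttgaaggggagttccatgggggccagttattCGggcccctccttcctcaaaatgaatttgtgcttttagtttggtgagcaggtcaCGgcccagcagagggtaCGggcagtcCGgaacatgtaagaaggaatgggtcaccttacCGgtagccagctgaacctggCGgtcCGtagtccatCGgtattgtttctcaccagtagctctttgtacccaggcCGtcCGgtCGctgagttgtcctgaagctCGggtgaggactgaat

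The 4 promoters with an island region held 39 (Slc16a1), 36 (Slc30a1), 24 (Slc38a1) and 47 (Slc4a4) CG dinucleotides in 300 bases. The Slco1a3 promoter held 12, and the median over 33465 RefSeq promoters of this length was 7. Thus 96.2% of promoters held fewer CG dinucleotides than that of Slc16a1, and 62.9% held fewer than that of Slco1a3. Over the 333 RefSeq promoters of Slc genes the median was 14. It was 24 for 15 promoters, which covered 11 of the 14 genes with a CG promoter island region. This set was picked by islands, which are rich in CG. The GC box (GGGCGG, searched on both strands) was present in the printed promoters of Slc16a1 (1 match), Slc38a1 (1 match) and Slc30a1 (3 matches), and these letters were found in 33.1% of all promoters. They were not found in the printed promoters of Slc4a4 and Slco1a3.

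To determine how Slc regions were oriented, hypermethylated and hypomethylated regions were counted in each context. Most Slc regions were higher in CUMS. Of the 234 regions, 193 were hypermethylated and 41 hypomethylated (82.5% hypermethylated), where 78.1% of all 12262 regions in gene features were hypermethylated. In the CG context 63 of 70 regions were hypermethylated (90%), against 87.7% over all genes. In the CHG context 56 of 75 were hypermethylated (74.7%, against 69.3%), and in the CHH context 74 of 89 (83.1%, against 77.5%). Shares of Slc genes thus lay near the shares over all genes in each context, and nothing particular to solute carriers can be read from the direction. A difference of at least 10 percentage points was reached by 72 Slc regions (30.8%), compared with 33.2% of all regions in gene features.

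The contexts differed in the levels from which regions started. The median over hypermethylated Slc CG regions was 24.2% in CUMS, where Ctrl had 7.19%. Over the 7 hypomethylated CG regions it was 61.8% in CUMS, where Ctrl had 83.0%. Of the 63 hypermethylated CG regions, 40 had a Ctrl level under 10%, 10 lay between 10% and 50%, and 13 were at 50% or more. For CHG regions the CUMS and Ctrl medians were 4.50% and 0.0659% when hypermethylated, and 0.0328% and 4.40% when hypomethylated. For CHH regions the medians were 8.02% and 0.198% in the hypermethylated regions, and 0.114% and 6.51% in the hypomethylated ones. In both non-CG contexts the lower group was therefore close to 0 in most regions, whichever group it was.

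**Figure D1:**
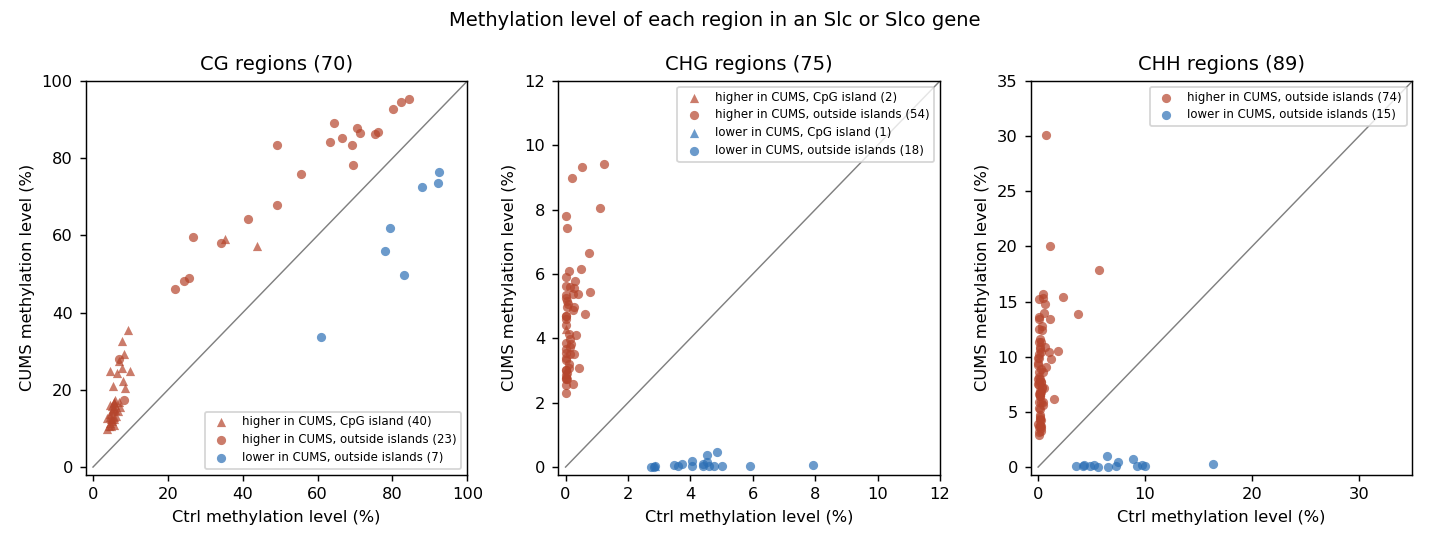
Methylation level in Ctrl (x axis, %) and in CUMS (y axis, %) for each of the 234 Slc and Slco regions, with CG, CHG and CHH regions in separate panels and on separate linear scales. Triangles are regions in a CpG island, and points above the grey line are higher in CUMS. The 40 island CG regions all lie above the line and mostly at Ctrl levels under 10%, while CHG and CHH regions lie along one axis or the other.

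Next, Slc regions were compared between promoters, CpG islands and the open sea. All 40 CG regions of Slc genes in a CpG island were hypermethylated. They lay in 37 genes, and 97.8% of CG island regions over all genes were hypermethylated too. Levels ranged from 3.69% to 43.9% in Ctrl and from 9.89% to 59.1% in CUMS, with medians of 5.66% and 15.7%. The median ratio of CUMS to Ctrl was 2.70, against 2.75 over the hypermethylated island regions of all genes. Islands held 57.1% of Slc CG regions, compared with 69.5% of all CG regions in gene features. Only 2 island regions started at 10% or more in Ctrl. These were an exon of Slc2a5, a fructose carrier (59.1% in CUMS and 35.2% in Ctrl), and Slc66a2 (57.4% and 43.9%).

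Promoters carried 27 Slc regions, of which 26 were hypermethylated, where 88.8% of promoter regions over all genes were. Promoters held 22.9% of Slc CG regions, compared with 37.2% over all genes. The 16 CG promoter regions were all hypermethylated, where 96.9% of CG promoter regions over all genes were. Of these 16, 14 lay in a CpG island, with Ctrl levels of 3.69% to 9.95% and CUMS levels of 10.6% to 35.4%. The remaining 2 were in the open sea and had far higher levels. A region of Slc24a3, a potassium-dependent sodium/calcium exchanger, was annotated to both a promoter and an intron. It had 83.4% in CUMS and 49.1% in Ctrl over only 4 cytosines. It and the island region over the 5′ untranslated region of this gene lay at opposite ends of a 353 kb stretch. In the promoter of Slco1a3 the levels were 92.6% and 80.1%. The largest promoter difference within an island belonged to Slc22a17 (chromosome 15, 28388321 to 28388439), where CUMS had 35.4% and Ctrl 9.40%. All 7 CHG promoter regions were hypermethylated (67.4% over all genes), as were 3 of the 4 CHH promoter regions (80.9% over all genes). The single hypomethylated promoter region was a CHH region of Slc9a4 (chromosome 9, 42824141 to 42824399), where CUMS had 0.170% and Ctrl 5.24%.

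In the open sea, 20 Slc CG regions were hypermethylated and 7 hypomethylated (74.1% hypermethylated), against 62.3% over all genes. All 7 hypomethylated CG regions lay in introns and in the open sea. Of these 7, 5 overlapped an annotated repeat (71.4%), whereas 6 of the 63 hypermethylated CG regions did (9.52%). Over all genes, 47.1% of hypomethylated and 8.44% of hypermethylated CG regions overlapped a repeat. Reads from repeats can be placed at the wrong copy, so levels in those regions are less certain. In islands lay 0 of 89 Slc CHH regions and 3 of 75 CHG regions (4%), where islands held 1.32% of CHH and 7.24% of CHG regions over all genes.

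**Figure D2:**
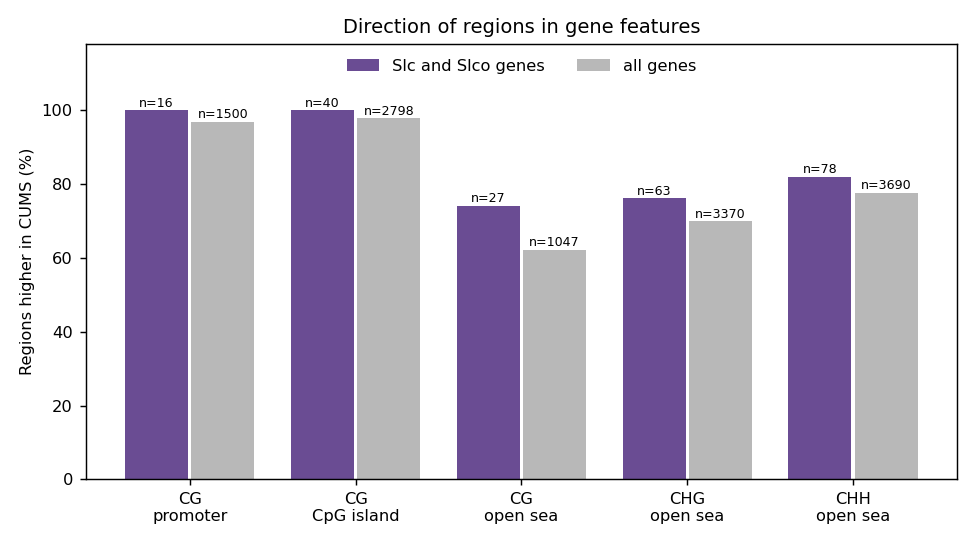
Share of regions that were higher in CUMS (y axis, %), by context and place, for Slc and Slco genes (purple) and for all genes (grey), with the number of regions above each bar. All 16 promoter and all 40 island CG regions of Slc genes were higher in CUMS, and the share fell to 74.1% in the open sea.

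Given that the study concerns the blood–brain barrier, transporters of barrier endothelium were examined gene by gene. The list held 55 genes, of which 54 were found in RefSeq under these symbols, and 23 carried at least 1 region (42.6%). Of all 397 protein-coding Slc genes in RefSeq, 36% carried a region, and of all protein-coding genes 25.9% did. Protein-coding genes with a region had a median length of 49.5 kb, against 15.5 kb over all protein-coding genes. Length was not adjusted for in these shares. The 43 regions of the list comprised 35 hypermethylated and 8 hypomethylated ones (81.4% hypermethylated, against 78.1% of all regions in gene features). Without the 6 regions annotated to Slco1a4, which cannot be assigned to that gene as described below, 29 of 37 regions in 22 genes were hypermethylated (78.4%). The list had 15 CG regions, or 13 without those annotated to Slco1a4. They included 9 island regions in 9 genes, all hypermethylated, where 97.8% of CG island regions over all genes were too. No region was annotated to Slc7a5 or Slc3a2, which together form the large neutral amino acid carrier, or to Slco1c1, which carries thyroid hormone.

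Slc2a1 encodes the main glucose carrier of the barrier, and its DMR had the largest difference of all barrier genes. The region lay in an intron and in the open sea (chromosome 5, 132737563 to 132737614), spanned 52 bp and held 10 CG cytosines. It was methylated to 59.5% in CUMS and 26.6% in Ctrl, or 32.9 percentage points apart. Its promoter and its CpG islands carried no listed region. Among the other carriers of energy substrates, Slc16a1, which moves lactate and ketone bodies, had a promoter island region at 10.6% in CUMS and 4.88% in Ctrl (chromosome 2, 192124040 to 192124129). Slc27a4, a fatty acid transport protein, had 10.8% and 5.65% in an island over its 5′ untranslated region. These 2 island regions had the lowest CUMS levels among the 9 island regions of the list.

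Amino acid and osmolyte carriers of the barrier had CG regions in islands and introns and CHH regions in introns. Slc38a1 and Slc38a2, neighbouring genes for sodium-coupled glutamine carriers, both had an island region, at 16.7% in CUMS and 5.58% in Ctrl for the Slc38a1 promoter and at 11.9% and 4.96% for the start of Slc38a2. Slc38a1 also carried the only hypomethylated CG region of the list, an intronic one outside repeats with 72.7% in CUMS and 87.8% in Ctrl (chromosome 7, 127782211 to 127782301). Slc5a3, the myo-inositol carrier, had an island region of 456 bp and 137 cytosines with 14.8% and 5.78%. Slc6a6, the taurine carrier, had an intronic region in the open sea with 64.3% and 41.5%. Slc1a4, a neutral amino acid carrier, and Slc7a6, a cationic and neutral amino acid exchanger, carried 1 intronic CHH region each, at 7.74% and 0.313% and at 7.19% and 0.526%.

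Ion and metal carriers included the island region with the largest difference in the list. Slc30a1 exports zinc from the cell, and its promoter had 29.2% in CUMS and 8.32% in Ctrl over 13 cytosines (chromosome 13, 103490756 to 103490832). Slc9a2, a sodium/proton exchanger, had 24.2% and 6.44% over 77 cytosines, and Slc4a4, a sodium bicarbonate cotransporter, had 16.0% and 5.94% over 49. The zinc importer Slc39a10 had an intronic island region at 15.6% and 7.19%. Slc39a8, another metal importer, carried 2 intronic CHH regions, the larger at 6.75% and 0.177%, and Slc30a10, a manganese exporter, carried 1 CHG region at 2.73% and 0.0408%.

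Vitamin, choline and drug carriers were represented mostly by non-CG regions. Slc19a2, a thiamine carrier, had a promoter CHH region on an island shore with 15.4% in CUMS and 2.35% in Ctrl. Slc44a1, a choline carrier, had 3 hypermethylated and 2 hypomethylated regions, the largest being an intronic CG region in a repeat with 87.9% and 70.5%. Slc23a2, a vitamin C carrier, carried a hypomethylated CHG region of 5 cytosines (0.0328% and 2.88%) and a hypermethylated CHH region. The organic ion carriers Slc22a3 and Slc22a8 had 3.95% and 0.0155% (CHH) and 9.42% and 1.23% (CHG) in their largest regions. Slc22a3 also carried a hypomethylated CHG region at 0.104% and 3.73%, and so did the fatty acid carrier gene Slc27a4, at 0.0154% and 2.85%. Slco2a1, the prostaglandin carrier, and Slco3a1 each carried 1 hypermethylated and 1 hypomethylated CHG region.

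**Figure D3:**
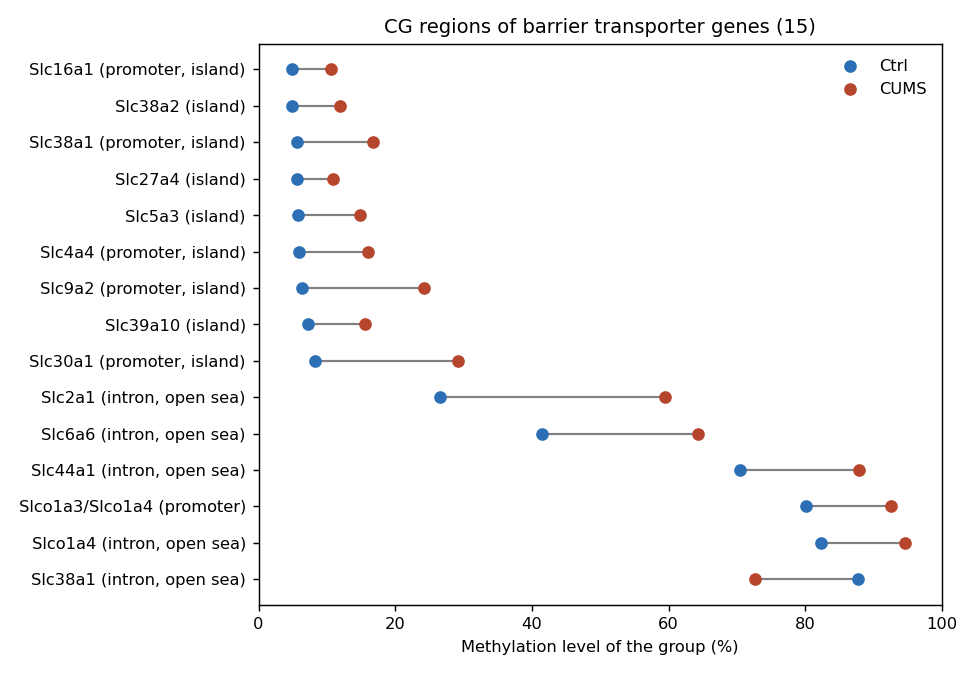
Methylation level in Ctrl (blue) and CUMS (red) of the 15 CG regions in barrier transporter genes (x axis, %; 1 row per region, with its place in parentheses). Island regions run from 4.88% to 8.32% in Ctrl and from 10.6% to 29.2% in CUMS. Slc2a1 shows the widest gap, and the intronic region of Slc38a1 is the only one lower in CUMS. The 2 regions that carry the symbol Slco1a4 cannot be assigned to that gene.

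Regions named Slco1a4 require care. Slco1a4 is a barrier carrier of organic anions, and the table assigned 6 regions to its symbol, all hypermethylated. They stretched over 507 kb of chromosome 4 (174714245 to 175221372), whereas the RefSeq gene Slco1a4 is 54.7 kb long. In RefSeq 5 genes of this subfamily follow each other in the order Slco1a4, Slco1a1, Slco1a3, Slco1a6 and Slco1a5. The gene model of the table (ENSRNOG00000047493) also carries the protein description of Slco1a5, and 1 of its regions was annotated to the promoter of Slco1a3 as well. The 6 regions therefore cannot be assigned to Slco1a4 itself, and near-identical genes may share reads. Their levels were 92.6% in CUMS and 80.1% in Ctrl and 94.5% and 82.3% in the CG regions, both of which lay in repeats. The 2 CHH regions had 11.6% and 0.177% and 10.9% and 0.219%, and the 2 CHG regions, next to each other in a repeat of the type RatSatRep2, had 2.58% and 0.230% and 3.52% and 0.280%.

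The Slc regions were then sorted by family. Of 52 families with a protein-coding gene in RefSeq, 39 carried a region and 22 carried a CG island region. Hypermethylated regions only were found in 19 families, several of which held a single region. Hypomethylated regions only were found in 1 family, Slc10, also with a single region. Over all genes, 78.1% of regions in gene features were hypermethylated, so nothing particular to these families can be read from the counts. The mitochondrial carriers of Slc25 had the most regions (26 in 18 of 53 genes), followed by Slc35, which includes the nucleotide sugar carriers (24 in 8 of 27), and by Slco (15 regions in 6 of 15 protein-coding genes and in Slco6b1, which RefSeq lists as a long non-coding RNA). Where 36% of all Slc genes carried a region, 9 of 13 genes did in the glucose carrier family Slc2, 18 of 53 in Slc25, 7 of 22 in Slc22 and 4 of 14 in Slc5. Genes with a region were long, with a median RefSeq length of 43.8 kb against 23.9 kb for Slc genes without one, and length was not adjusted for in these counts.

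**Figure D4:**
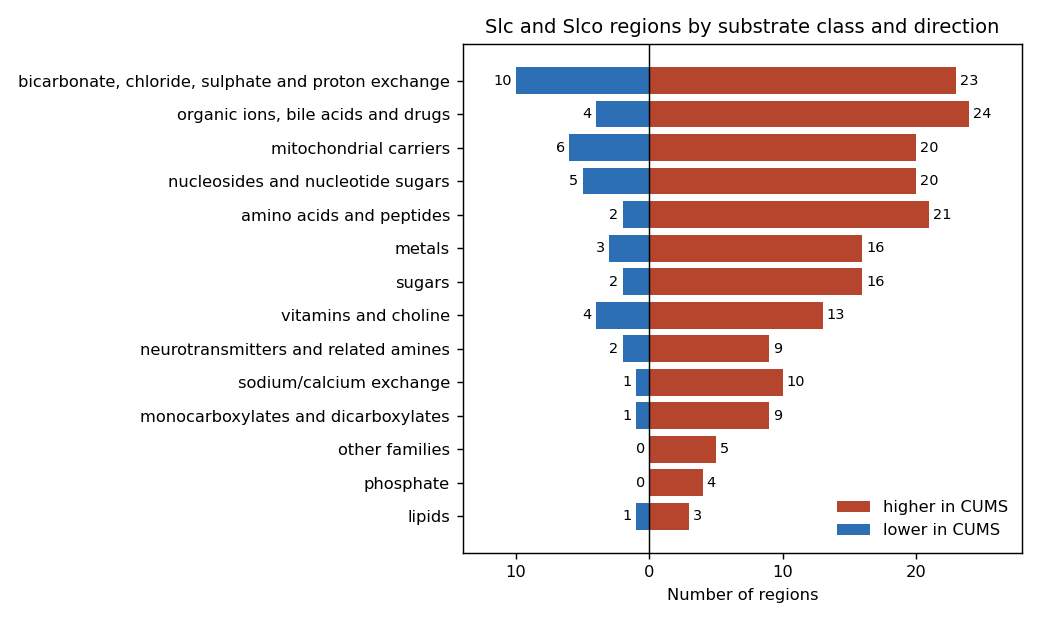
Number of regions higher (red, to the right) and lower (blue, to the left) in CUMS, by substrate class. Each family was placed whole in 1 class, so single members can carry something else. Slc5a7, a choline carrier, is counted under sugars. Hypermethylated regions were in the majority in each class, with 23 against 10 in the bicarbonate, chloride, sulphate and proton exchangers and 21 against 2 in the amino acid and peptide carriers.

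Mitochondrial carriers combined both directions in the CG context, as did Slc35 (7 hypermethylated and 1 hypomethylated) and Slc38 (2 and 1). Slc25a5, which encodes an ADP/ATP carrier of the inner membrane on chromosome X, had an island region at 32.7% in CUMS and 7.80% in Ctrl. The citrate carrier gene Slc25a1 had 21.1% and 5.47% in an island. In contrast, 4 of the 7 hypomethylated CG regions lay in introns of Slc25 genes. The family also had 8 hypermethylated CG regions, where 87.7% of CG regions over all genes were hypermethylated. Slc25a12, an aspartate/glutamate carrier, had the largest decrease among Slc regions, with 49.8% in CUMS and 83.0% in Ctrl inside a LINE repeat. In Slc25a54 the values were 33.7% and 61.0%, in Slc25a24, an ATP-Mg/phosphate carrier, 56.0% and 78.1%, and in Slc25a40 76.4% and 92.4%. Of these hypomethylated regions, only that of Slc25a54 lay outside repeats. Those of Slc25a54 and Slc25a24 lay near each other on chromosome 2, starting at 196734615 and 196794509. Slc25a12 also carried 3 hypermethylated non-CG regions, and Slc25a40 carried 1 hypermethylated CHH region.

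The regions ranked first by the DSS region score were examined in each context. For hypermethylated CG regions these were Slc24a3, Slc5a3, Slc9a2, Slc25a1 and the zinc carrier Slc30a4, all in islands. Islands held 40 of the 63 hypermethylated Slc CG regions. The island region of Slc24a3 was the longest of the first 5 (459 bp, 145 cytosines), with 27.5% in CUMS and 6.90% in Ctrl. For hypomethylated CG regions they were Slc10a7 (73.5% in CUMS and 92.2% in Ctrl), Slc38a1, Slc25a54, Slc25a24 and Slc25a12. For hypermethylated CHH regions they were the glucose carrier Slc2a3 (13.6% and 0.0397%), the inositol carrier Slc2a13 (14.8% and 0.611%), Slc35g2 (15.3% and 0.0556%), the fatty acid carrier Slc27a6 (15.7% and 0.504%) and Slc7a14 (10.7% and 0.168%). The hypomethylated ones were Slc35f1 (0.114% and 10.0%), Slc4a5 (0.100% and 7.29%), Slc18a1 (0.0717% and 4.89%), Slc35f3 (0.0739% and 9.23%) and Slc25a38 (0.0387% and 5.59%). Outside these first ranks, Slc2a3 also carried a hypomethylated intronic CHH region, at 0.0303% in CUMS and 6.51% in Ctrl. In the CHG context the hypermethylated regions were those of Slc25a26, Slco1b2, Slc30a10, Slc43a3 and Slc9a9, and the hypomethylated ones those of Slc4a2, Slc41a2, Slc35b2, Slc35f1 and Slco2a1, with the higher group between 2.73% and 8.05%.

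Transporters of neurotransmitters, which are known from neurons and glia, were examined because these cells surround the vessels. Of 21 genes, 8 carried a region (38.1%), against 36% of all Slc genes. Of their 9 regions, 7 were hypermethylated (77.8%, against 78.1% of all regions in gene features). The only CG region was an intronic island region of Slc6a9, a glycine carrier, at 24.9% in CUMS and 4.52% in Ctrl. The glutamate carriers of astrocytes, Slc1a2 and Slc1a3, carried intronic CHH regions at 8.61% and 0.464% and at 8.02% and 0.0261%. Among carriers of GABA, Slc6a11 was hypermethylated (9.91% and 0.0938%) and Slc6a13 hypomethylated (0.167% and 9.69%), both in intronic CHH regions. Slc5a7, which takes up choline at cholinergic terminals, had 7.74% and 0.0569% in a CHH region. The glycine carrier gene Slc6a5 carried 2 hypermethylated CHG regions, the larger at 5.91% and 0.0287%. The vesicular glutamate carriers Slc17a6 and Slc17a7 and the vesicular GABA carrier Slc32a1 carried no region.

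Because homocysteine arises from methyl group transfer, carriers of folate, S-adenosylmethionine and sulphur amino acids were also counted. Of 15 genes, 5 carried a region (33.3%, against 36% of all Slc genes). All 6 regions were hypermethylated, where 78.1% of all regions in gene features were. Slc25a26, which brings S-adenosylmethionine into mitochondria, had an intronic CHG region of 79 cytosines at 2.91% in CUMS and 0.0559% in Ctrl. Slc3a1, a subunit of a cystine carrier, had a CHH region at 5.25% in CUMS, 5.05 percentage points above Ctrl. The other genes were Slc1a4, Slc38a2 and Slc6a6, described above. The folate carriers Slc19a1, Slc46a1 and Slc25a32 and the cystine/glutamate exchanger Slc7a11 carried no region.

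Finally, genes with several regions were inspected along their length. A single region was found in 96 genes, and 48 genes carried 2 or more. The most regions were found in Slc35f3 (9), Slc44a5 (7), Slc35f1 (6), Slc24a3 (5), Slc44a1 (5) and Slc9a9 (5), and the median RefSeq length of these 6 genes was 341.9 kb. The symbol Slco1a4 also had 6 regions, which span several Slco1a genes. The 5 regions of Slc24a3 were hypermethylated in all 3 contexts. In Slc35f1, the CG, CHG and CHH regions nearest the low end of its coordinates were hypomethylated, and the 3 CG regions farther along were hypermethylated (86.8% and 76.1%, 89.1% and 64.4%, and 84.2% and 63.3%). Regions of both directions were present in 20 genes, regions higher in CUMS alone in 108 and regions lower in CUMS alone in 16. The 96 genes with a single region could show only 1 direction, and 78.1% of all regions in gene features were hypermethylated. The split therefore shows nothing particular to solute carriers. Opposite directions also occurred close together. In Slc12a5, a potassium/chloride cotransporter of neurons, 4 regions lay within 7.15 kb of chromosome 3, namely 2 island CG regions (15.1% and 5.33%, and 24.8% and 9.95%), a hypomethylated CHG region (0.377% and 4.54%) and a hypermethylated CHH region (3.18% and 0.113%).

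**Figure D5:**
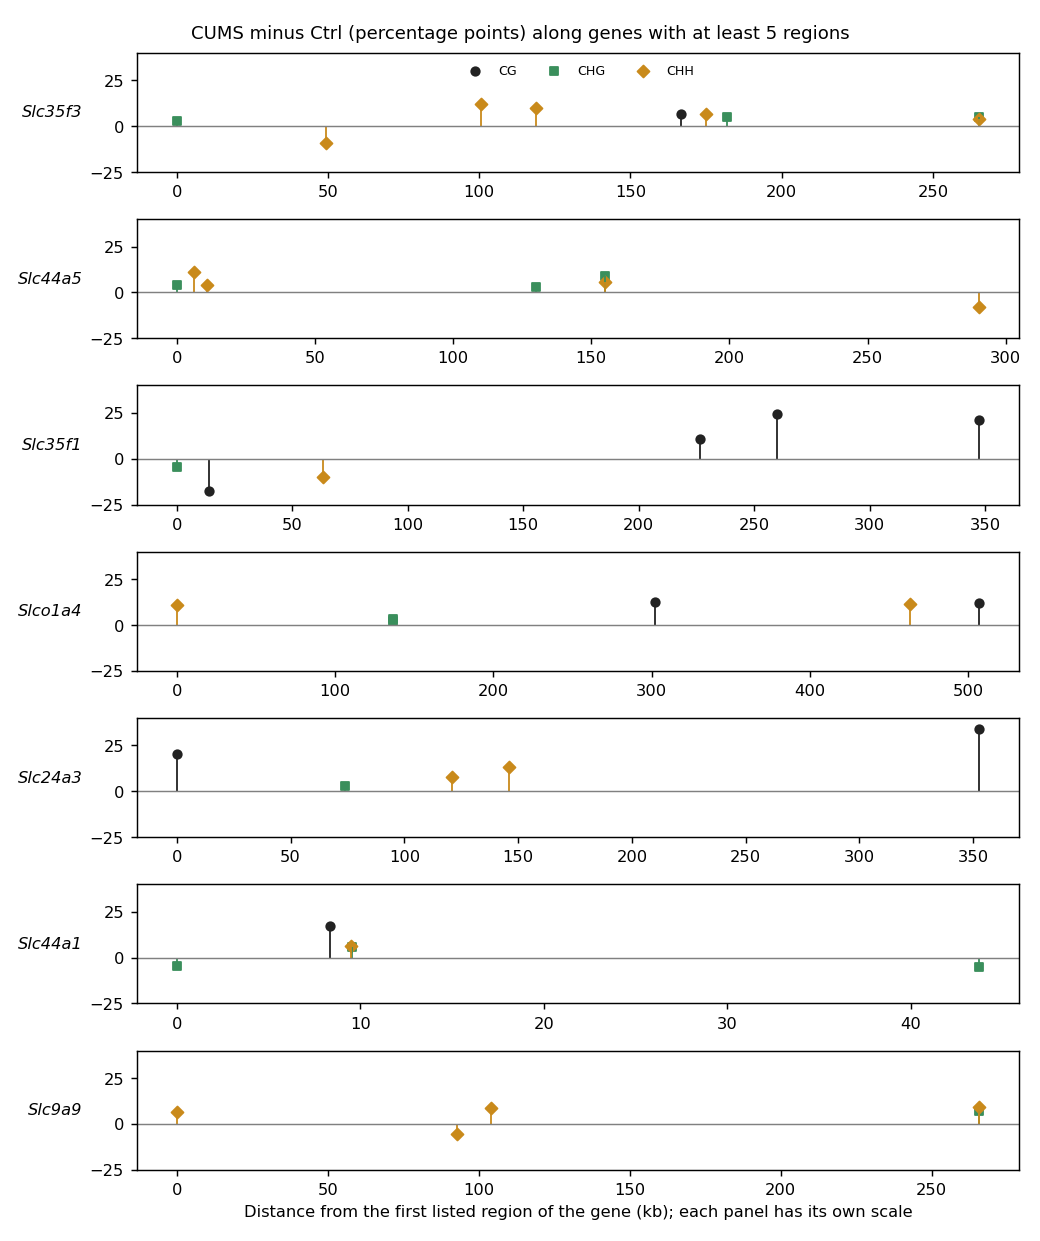
Difference between CUMS and Ctrl (y axis, percentage points) of each region against its distance from the first listed region of the gene (x axis, kb), for the 7 gene symbols with at least 5 regions, with CG regions as black circles, CHG as green squares and CHH as yellow diamonds. All regions of Slc24a3 and of the symbol Slco1a4, whose regions span several Slco1a genes, lie above 0, and Slc35f1 has 3 regions below 0 at one end and 3 above 0 farther along.

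Overlaps between Slc regions of different contexts were also counted. Overlaps over all genes were not counted, so nothing particular to solute carriers can be read from these numbers. In 10 genes a CHG region overlapped a CHH region by at least 1 bp, which took in 10 of the 75 CHG regions. All 10 pairs were hypermethylated in both contexts, where 69.3% of CHG and 77.5% of CHH regions over all genes were. The levels of a pair were often alike, as in Slc5a10, with 9.34% (CHG) and 9.09% (CHH) in CUMS, or Slc4a4, with 5.07% and 5.34%. Slco6c1 was an exception, with 7.79% in CHG and 30.1% in CHH, the highest non-CG level among Slc regions, within retroviral repeats. Both contexts of a pair are read from the same DNA fragments, so the pairs are not independent. No CG region of an Slc gene overlapped a CHG or CHH region.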

How the data were processed

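DNA methylation was measured in hippocampal BMECs of 3 CUMS and 3 Ctrl samples, grouped by their titles. Libraries were made after enzymatic treatment with TET2 and APOBEC3A, so a cytosine left unconverted is read as methylated. Per the submitters' processing notes, reads were checked with FastQC 0.11.3, trimmed with fastp 0.20.0 and aligned with Bismark 0.16.3 and Bowtie2, with mRatBN7.2 (rn7) as the build. The authors called regions with DSS and deposited, for each region, the methylation level as a fraction from 0 to 1, with 1 mean per group, given here in percent. The deposited tables also give the number of cytosines, the length and the DSS region score, an outcome of the authors' own comparison that was used here only to rank regions. The authors' column of differences was not used, and differences were recomputed from the levels. The study gives the sequencing coverage of the samples, but the number of reads behind each region's level is unknown, since no read number, coverage, p-value or value per sample was among the values used.

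Although the study states a minimum difference of 10%, the smallest difference in the 24869 regions of the reduced list was 2.00 percentage points, and all were kept. The annotated list holds 10000 of the 145823 CHH regions, those with the largest region scores, so CHH counts cover the strongest regions only. Region counts, medians and list counts were computed with Python 3.11.15 and pandas 2.3.3, and the counting was tested on simulated data. All 144 symbols were found in the RefSeq gene table of GRCr8, 143 of them as protein coding, and that table was used for names, gene lengths and neighbours only. Alternatives were larger differences, at least 10 cytosines, single contexts, merging within 1 kb, chromosomes 1 to 20 and regions of a single gene, and, added after the data were seen, regions outside repeats and regions other than those of Slco1a4. A share was taken as moved when it left the 95% exact binomial interval of the value reported, which covers the counting of regions only, and a count when it changed by over 1.5 times.

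The genes named were Slc2a1, Slc7a5 and Slco1a4, the listed genes of the barrier list, up to 6 listed genes each of the neurotransmitter and one-carbon lists, the 5 regions per direction and context with the largest absolute region score, and the genes with the most regions, where ties at 5 regions were all kept. Other genes, such as Slc22a17, Slc6a5, Slc2a5, Slc66a2, Slc25a5, Slc12a5 and Slco6c1, were chosen after their values were seen. The members and lists were chosen with earlier results of these data known. The profile of levels over all genes was not used.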

Additional observations from a re-analysis of the deposited data

Results flagged for a closer look

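The full region list extends beyond the annotated one. Between the outermost listed regions of the 48 Slc genes with at least 2 regions (3252 kb in all), it held 190 further CHH regions that the comparisons above do not use. They were looked at because they are a signal in data outside those comparisons. Of these, 114 were hypermethylated and 76 hypomethylated (60% hypermethylated), against 63.5% of all 135823 CHH regions outside the annotated list. The CUMS and Ctrl medians were 3.02% and 0.195% where hypermethylated, and 0.197% and 2.89% where hypomethylated. With them included, the stretch of Slc39a11 held 30 regions, 15 in each direction. The 507 kb stretch annotated to Slco1a4, which spans several Slco1a genes, held 33, of which 20 were hypermethylated. What sets these low levels was not tested.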

How the results depend on the processing

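No paired analysis was possible because all 3 samples of a group enter 1 level. For that reason no replicate could be left out in turn. Of 53 comparisons with an alternative, 26 stayed the same and 27 moved. Hypermethylated regions were in the majority under each of the 13 alternatives run for the direction, from 69.0% (full list, between the outermost regions of a gene) to 90% (CG only). The share was 82.5% as reported, 88.9% at a minimum of 10 points, 74.7% for CHG alone and 87.4% when each gene counted once by most of its regions, with 9 tied genes left out. Why the other values moved was not tested, beyond that a larger minimum or a single context keeps fewer regions and so cannot raise the number of genes. The share of regions in a CpG island was 18.4% as reported, 26.4% at 10 points, 28.6% at 20 points, 57.1% for CG, 4% for CHG, 0% for CHH and 28.1% outside repeats. The promoter share was 11.5% as reported, 18.1% at 10 points, 22.9% for CG and 4.49% for CHH. Of RefSeq Slc genes, 36.0% carried a region as reported, 14.9% at 10 points, 4.28% at 20 points, 15.1% for CG, 15.4% for CHG, 17.4% for CHH and 28.5% outside repeats. At 10 points the barrier list kept 9 of its 23 genes, the neurotransmitter list 1 of 8 and the one-carbon list 1 of 5, and with CG regions alone they kept 13, 1 and 2. Outside repeats the one-carbon list kept 2. Merging within 1 kb, chromosomes 1 to 20, regions of a single gene and at least 10 cytosines moved none of the 4 shares. The number of reads behind each level is unknown and limits it. A level over few cytosines, such as 4 in the promoter-annotated region of Slc24a3, is the least certain.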

Other observations

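Some solute carrier genes outside the lists above had sizeable CG regions. The sodium bicarbonate carrier gene Slc4a8 carried 4 intronic regions on chromosome 7, all hypermethylated, with CG levels of 48.2% in CUMS and 24.4% in Ctrl and another region at 46.0% in CUMS, 24.1 points above Ctrl. Slc41a2, a magnesium carrier, had 2 intronic CG regions at 49.0% and 25.5% and at 75.9% and 55.7%, and a hypomethylated CHG region between them at 0.148% and 4.55%. The sodium/calcium exchanger gene Slc8a2 was annotated to the open sea at its start and still had a low level, at 6.87% in Ctrl, with CUMS 21.1 points higher. The amino acid carrier genes Slc6a15 and Slc7a2 had promoter island regions at 25.6% and 7.77% and at 22.3% and 8.14%.

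The largest hypomethylated non-CG region was an intronic CHH region of Slc4a11 (chromosome 3, 117907053 to 117907292), at 0.323% in CUMS and 16.4% in Ctrl. Among promoters of Slc genes, those of genes with a CG island region contained the GC box (GGGCGG) in 29 of 38 cases (76.3%). The count was 40 of 98 (40.8%) for listed genes without such a region and 90 of 197 (45.7%) for genes without any region. The median number of CG dinucleotides in 300 bases was 23, 12.5 and 12, in the same order. The first set was picked by islands, which are rich in CG, so the contrast was partly given by that choice. Base composition was not adjusted for.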
